A study of Oryza sativa with 12 samples.

Results

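The response of wild-type (WT) rice seedlings to desiccation stress (DS) was measured on 6 expression arrays, 3 of seedlings kept in water (WT_CT) and 3 of seedlings left to dry (WT_DS), out of 12 arrays in the series. The members were chosen by these labels alone, and every gene with its own probe set in the gene table of the array was described, which gave 15140 genes of 15140. A recognised name was held by 1740 of these genes, and the other 13400 were listed only by a LOC symbol, so a large part of the response lies in genes that a gene symbol does not explain.

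The seedlings were 3 weeks old, of the cultivar Pusa Basmati 1 (PB1), raised in hydroponic medium and harvested whole. WT_CT seedlings stood in water, and WT_DS seedlings were left to lose water in folded tissue paper, each for 3 h, a treatment that the sample labels call drought. The other 6 arrays held seedlings that carried *OsHOX24* under a ubiquitin promoter (OX), in water or after the same treatment. They were used here to estimate the spread, to choose a probe set for each gene and to match published descriptions to probe sets. They also entered a check of replicate numbers and a comparison with the WT arrays. The methods call the 3 arrays of a group independent biological replicates, and the sample labels number them 1 to 3.

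When a seedling loses water, abscisic acid (ABA) accumulates and binds its receptors, which then hold back the clade A protein phosphatases 2C (PP2Cs). This frees SnRK2 kinases to activate bZIP factors, which switch on genes for late embryogenesis abundant (LEA) proteins, dehydrins, osmolyte and sugar metabolism and feedback regulators of the pathway itself. Growth, photosynthesis and cell division are known to be held back at the same time. A rapid drying treatment of seedlings is a classical way to start this programme, which overlaps with the one that seeds use when they mature.

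The values are log2 signals after Robust Multi-array Average (RMA) normalization, in which a difference of 1 is a 2-fold difference. They compare 1 probe set between arrays and do not rank different genes against each other. Over the 15140 genes the median log2 signal was 5.18 to 5.28 in WT_CT arrays and at most 5.10 in WT_DS arrays, and the correlation across genes between arrays was 0.952 to 0.965 within WT_CT, 0.949 to 0.967 within WT_DS and 0.868 to 0.905 between them. All 5 leaf markers, among them the light-harvesting gene *CAB2R* and the glycolate oxidase gene *GLO5*, had a WT_CT mean of at least 5. So did 2 of 8 root markers, the silicon transporter gene *Lsi2* and the phosphate transporter gene *OsPht1;1*. Since the values do not rank different genes, these counts do not compare the amounts of leaf and root tissue. Of 6 markers of developing seed, only the glutelin gene *GLUA1* was above this level, at 6.56 in WT_CT and 6.60 in WT_DS, and the other 5 had WT_CT means of 1.45 to 3.31. After DS, 3 of the leaf markers and both of these root markers were lower, *Lsi2* from 7.88 to 6.07 and *OsPht1;1* from 6.39 to 5.25, while no seed marker was called, and the part of tissue composition in the results was not tested. In whole seedlings, fewer cells of a type and less RNA per cell cannot be told apart.

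With limma, an adjusted p (Benjamini-Hochberg) no larger than 0.05 and a minimum of 2-fold, 747 genes were higher after DS (4.93% of those tested) and 1283 were lower (8.47%). The rises reached further than the falls. A change of at least 4-fold was found for 186 genes that rose and 117 that fell, of at least 8-fold for 45 and 15, of at least 16-fold for 13 and 1, and of at least 32-fold for 3 and 0. The median of the genes that rose went from 5.63 in WT_CT to 7.39 in WT_DS, and 261 of them had a WT_CT mean under 5. The median of the genes that fell went from 6.54 to 5.09, and 610 of them ended with a WT_DS mean under 5, where the median over all genes in WT_CT was 5.24. With each array centred on its own median the counts became 1100 higher and 774 lower, since the median log2 fold change over all genes moved from -0.06 to 0.14, and with quantile normalization they became 917 and 974. The 2-fold counts therefore do not settle whether more genes rose or fell. Centring raised every fold change by the same amount, and quantile normalization kept 737 of the 747 rises and 964 of the 1283 falls.

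**Figure D1:**
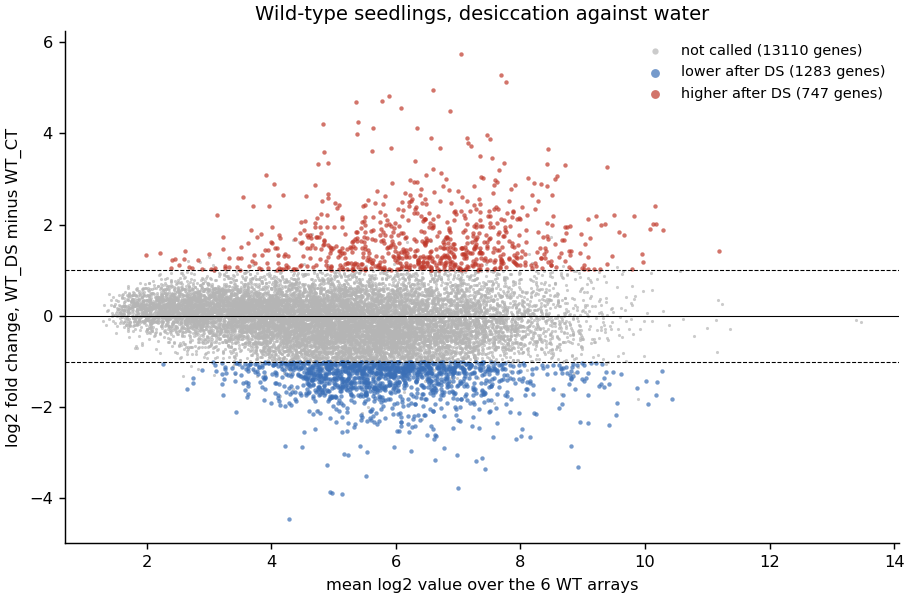
Log2 fold change of WT_DS against WT_CT (vertical axis) plotted against the mean log2 value over the 6 WT arrays (horizontal axis), 1 point per gene of 15140. Dashed lines mark a 2-fold change. The 747 genes that rose (red) reach above 5 on the log2 scale, and the 1283 that fell (blue) reach -4.46.

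The arrays of the 2 treatments did not overlap for 1984 of the 2030 genes called, 731 of those that rose and 1253 of those that fell, whereas they did not overlap for 39.9% of all genes. Single arrays differed in how far they had moved. WT_DS replicate 1 was the lowest of its group for 510 of the 747 genes that rose (68.3%), against 42.8% of all genes, and the median over these 747 was 7.10 in it and 7.52 and 7.48 in the other WT_DS arrays. WT_CT replicate 1 was the highest control for 30 of the 45 genes that rose at least 8-fold (66.7%), against 38% of all genes. Without WT_CT replicate 1 the counts were 792 higher and 1254 lower, and without WT_DS replicate 1 they were 873 and 1199.

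Genes of ABA synthesis and signalling were among the strongest rises. 9-cis-epoxycarotenoid dioxygenase (NCED) carries out the step that limits ABA synthesis, and 3 genes described as NCED were measured, all without a gene symbol. The NCED gene Os07g05940 read 4.44, 3.95 and 2.99 in the WT_CT arrays and 7.91, 8.50 and 8.66 in the WT_DS arrays, a rise of 4.56 ± 0.33 on the log2 scale (SE, n = 3 per group, adjusted p = 2.9e-06). The NCED gene Os03g44380 went from 4.82, 4.72 and 5.02 to 9.16, 8.87 and 9.28, a rise of 4.25 ± 0.24 (adjusted p = 5.9e-06). In both, every dried array was at least 3 log2 units above every control array. The third, Os12g42280, rose by 1.08 ± 0.28 (adjusted p = 0.027), from 4.08, 4.72 and 4.15 to 5.45, 5.06 and 5.68, and lost this call when WT_CT replicate 1 or 3 or WT_DS replicate 1 or 3 was left out (adjusted p = 0.091, 0.093, 0.069 and 0.075). *MHZ4*, which acts a step before NCED in making neoxanthin, rose by 2.28 ± 0.20 (adjusted p = 8.5e-06), with values of 6.16 to 6.31 in water and 8.27 to 8.65 after DS.

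Of 33 named PP2C genes, 9 rose (27.3%) and 2 fell (6.06%), and the median log2 fold change of the list was 0.21 beside -0.06 over all genes. Among all genes with a recognised name, from which the named members of every list are drawn, 7.64% rose and 11.5% fell. *OsPP2C59* read 4.42 to 5.71 in the WT_CT arrays and 10.19, 10.31 and 10.50 in the WT_DS arrays, a rise of 5.29 ± 0.27 (adjusted p = 2.4e-07). *PP2C68* rose by 3.67 ± 0.30 (adjusted p = 5.3e-06), from 3.31 to 4.49 in the controls to 7.53 to 7.89. The PP2C family holds both the ABA co-receptors and many members with other tasks, and not all moved alike. *OsPP2C05* fell by 2.22 ± 0.29 (adjusted p = 0.00016), from 8.75, 8.57 and 7.72 to 6.24, 5.97 and 6.16. Of 6 further loci described as PP2C and lacking a symbol, 5 rose, led by Os05g46040 at 2.29 ± 0.24 and Os01g46760 at 2.16 ± 0.25, and 1 fell.

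Of 8 named genes of ABA synthesis, breakdown, reception and kinases, 5 rose and 0 fell, with a median of 1.20. The list includes *MHZ4*, *OsBZIP23* and the SnRK2 genes. *OsBZIP23*, a bZIP factor of ABA responses, read 5.68, 6.14 and 5.71 in WT_CT and 8.61, 9.05 and 9.03 in WT_DS and rose by 3.05 ± 0.20 (adjusted p = 2.1e-06). *OsSAPK1*, a SnRK2 kinase gene, rose by 1.73 ± 0.29 (adjusted p = 0.001), from 6.59, 5.66 and 5.55 to 7.08, 8.04 and 7.89. *OsSAPK7* rose by 1.36 ± 0.42 (adjusted p = 0.028), and its adjusted p was 0.11 without WT_CT replicate 2, 0.097 without WT_DS replicate 1 and 0.058 without WT_DS replicate 3.

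LEA proteins and dehydrins are hydrophilic proteins that protect membranes and enzymes as water is withdrawn. All 4 named LEA genes rose, with a median of 3.66, and so did 12 of 14 loci that carry only a LEA or dehydrin description, with none lower. *OsLEA3-1* read 3.63, 2.57 and 2.84 in WT_CT and 7.48, 7.90 and 7.69 in WT_DS, and the LEA group 3 gene Os01g50910 (LOC4324254) went from 6.35, 4.42 and 4.82 to 10.28, 10.22 and 10.48. They rose by 4.68 ± 0.29 (adjusted p = 1.3e-06) and 5.13 ± 0.36 (adjusted p = 2.6e-06). *LEA1* rose by 3.34 ± 0.31, with no overlap between 2.77 to 3.56 in water and 5.95 to 6.68 after DS. *EM*, which encodes a small hydrophilic seed protein, was the least even of the 4, with 6.94, 4.86 and 6.60 in the WT_DS arrays against 2.92, 3.75 and 3.15, and its rise of 2.86 ± 0.58 (adjusted p = 0.003) became 3.49 without WT_DS replicate 2.

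The dehydrins lay in 2 places. On chromosome 11, *RAB16C* (Os11g26760) stood beside the dehydrin loci Os11g26780 and Os11g26790. *RAB16C* went from 3.43, 3.18 and 3.53 to 7.10, 7.05 and 7.96, a rise of 3.99 ± 0.30 (adjusted p = 3.1e-06). Os11g26780 went from 1.97, 2.78 and 2.33 to 6.20, 6.74 and 7.58, a rise of 4.48 ± 0.45 (adjusted p = 0.00017), and Os11g26790 rose by 3.35 ± 0.27 (adjusted p = 4.6e-05). Neighbouring dehydrin genes are close copies of each other and the probe positions were not used here, so how far the 3 signals are separate is uncertain. The dehydrin Os02g44870 on chromosome 2 read 7.10, 6.35 and 6.49 in water and 10.50, 11.10 and 10.72 after DS (4.13 ± 0.22, adjusted p = 5e-06). The seed maturation protein PM41 gene Os01g46600 rose by 3.89 ± 0.37, from 5.30, 4.30 and 6.01 to 9.58, 8.71 and 8.98.

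Among the largest described rises were also a small membrane protein, an actin-binding protein and a universal stress protein. *OsRCI2-5* (Os03g17790), of a family of small membrane proteins induced by cold and salt, read 5.88, 4.02 and 3.93 in WT_CT and 8.46, 8.45 and 8.60 in WT_DS. It rose by 3.89 ± 0.45 (adjusted p = 6.9e-05), or by 4.52 without WT_CT replicate 1. The actin-depolymerizing factor gene Os03g60580, whose family severs and turns over actin filaments, read 8.65, 5.70 and 5.88 in water and 11.45, 11.77 and 11.56 after DS. The rise was 4.86 ± 0.63 (adjusted p = 0.00077) and 5.81 without WT_CT replicate 1, the one control in which it was high. The universal stress protein gene Os01g32780 went from 6.55, 5.07 and 5.11 to 9.10, 9.62 and 9.63, a rise of 3.87 ± 0.32, again with the highest control in replicate 1.

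**Figure D2:**
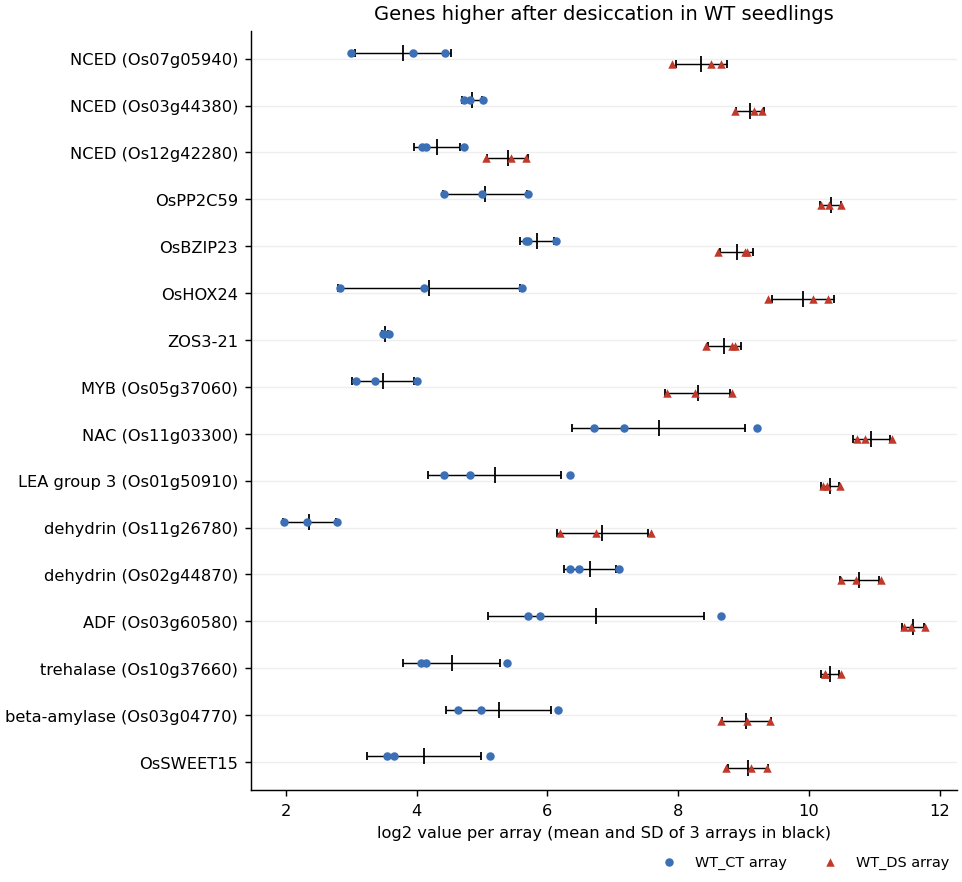
Log2 values of 16 genes that rose after DS in the 3 WT_CT arrays (blue circles) and the 3 WT_DS arrays (red triangles), with the mean and SD of 3 arrays in black. The groups do not overlap for any of the 16 genes. This is no separate evidence of a response, since some named genes were picked for having no overlap. Among the 2030 genes called in either direction, 1984 had none. The NAC gene Os11g03300, at 9.21, and the actin-depolymerizing factor gene Os03g60580, at 8.65, each have 1 control array far above the others.

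Several transcription factor genes rose, and *OsHOX24* itself, a homeodomain-leucine zipper (HD-Zip) I gene, read 5.61, 4.11 and 2.83 in the WT_CT arrays and 9.38, 10.29 and 10.06 in the WT_DS arrays. Its rise of 5.73 ± 0.55 (adjusted p = 1.5e-05) was the largest of any gene in the gene table, and since its controls were far apart it became 6.44 without WT_CT replicate 1 and 5.05 without WT_CT replicate 3. The HD-Zip locus Os04g45810 rose by 3.06 ± 0.30 (adjusted p = 0.00016), from 5.62, 5.23 and 4.67 to 8.14, 8.66 and 7.91. Other loci described as HD-Zip went both ways, Os09g21180 rising by 2.76 ± 0.35 and *HOX4* going from 6.31 to 6.97 in water to 4.59 to 5.75 after DS. Of 22 named homeobox genes 3 rose and 3 fell, and their median of -0.10 turned to 0.11 when the arrays were centred or quantile normalized.

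C2H2 zinc fingers, many of which act as repressors in stress responses, were led by *ZOS3-21* (Os03g60560). Its control arrays were nearly identical at 3.57, 3.50 and 3.49, and its dried arrays read 8.42, 8.83 and 8.87, a rise of 5.18 ± 0.26 (adjusted p = 4.3e-06). The adjacent *ZOS3-22* (Os03g60570) rose by 2.95 ± 0.58 (adjusted p = 0.0077), from 4.71, 5.68 and 5.68 to 7.44, 8.36 and 9.15. Of 46 named C2H2, C3H, RING and stress-associated zinc finger genes only 3 rose and 2 fell, while of 42 that were known by description alone 25 rose and 6 fell. This contrast follows from how descriptions were obtained, because the list that supplied them holds genes selected for a response on these same arrays, and the counts of described loci are no independent evidence of direction.

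NAC factors are plant-specific regulators, several of which act in drought and senescence. Of 7 named NAC genes 2 rose and 0 fell, and of 10 described loci 9 rose and 0 fell. *SNAC2* read 9.06, 9.67 and 9.06 in WT_CT and 10.50, 10.74 and 10.63 in WT_DS, a rise of 1.36 ± 0.23 (adjusted p = 0.001). The described NAC locus Os11g03300 read 9.21, 7.18 and 6.72 in water and 10.86, 11.28 and 10.73 after DS, and rose by 3.25 ± 0.51 (adjusted p = 0.0023), or by 4.01 without WT_CT replicate 1. Os12g03040 and *NAC077* (Os12g03050), neighbours on chromosome 12, rose by 2.61 ± 0.33 and 2.41 ± 0.41, although both remained dim, with no WT_DS array above 5.75. MYB genes followed the same course, with 2 of 6 named and 4 of 6 described members higher and 1 described member lower. The MYB gene Os05g37060 read at most 4.0 in WT_CT and 8.82, 8.26 and 7.83 in WT_DS, a rise of 4.82 ± 0.41 (adjusted p = 6.9e-06), and the MYB locus Os01g44390 fell by 2.11 ± 0.32.

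Among AP2/ERF factors, which include the DREB proteins of dehydration and cold responses, none of the 10 named genes rose and 2 fell. Of 20 described loci 15 rose and 0 fell, a direction that the selection of the described loci favours. *DREB1A*, best known from cold responses, read 6.37, 7.89 and 8.21 in WT_CT and 5.50, 4.63 and 4.70 in WT_DS, a fall of 2.55 ± 0.51 on the log2 scale (adjusted p = 0.0026). *DREB1G* fell by 1.80 ± 0.47 (adjusted p = 0.012), but its adjusted p was 0.058 without WT_CT replicate 3 and 0.053 without WT_DS replicate 2. The ERF gene Os03g09170 rose by 3.03 ± 0.27 (adjusted p = 1e-05), from 5.60 to 6.28 in water to 8.51 to 9.42, and *DREB2A* (Os01g07120) rose by 2.04 ± 0.23 (adjusted p = 0.00037). The median of the named AP2/ERF genes was -0.14 and turned to 0.07 when the arrays were centred.

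Of 15 named bZIP genes 3 rose (20%) and 2 fell (13.3%), beside 7.64% and 11.5% of all genes with a recognised name. Of 9 described loci 6 rose and 1 fell. Besides *OsBZIP23*, Os08g36790 rose by 2.06 ± 0.27, and *OsbZIP08*, a TGA-type factor, fell by 1.42 ± 0.21, from 5.26 to 5.80 to 3.79 to 4.34. Heat shock factors and heat shock proteins were 4 higher (16.7%) and 0 lower of 24 named genes, and 5 higher and 4 lower of 11 described loci. Among the described falls, the DnaJ co-chaperone gene Os01g53020 fell by 2.01 ± 0.43 (adjusted p = 0.0045), from 9.56 to 9.70 in water to 6.56 to 8.44, and the DnaJ locus Os03g18200 fell by 1.47 ± 0.30. *HSF24*, a class B heat shock factor, rose by 2.46 ± 0.32 (adjusted p = 0.00016), and *HSP17.4*, a small chaperone, went from 3.47 to 4.12 to 4.80 to 5.66 (adjusted p = 0.0021). No named WRKY gene of 5 passed, *WRKY9* being closest at a log2 fold change of 0.30 ± 0.19 (adjusted p = 0.28), and 3 of 5 described WRKY loci rose, by at most 1.49.

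Sugar metabolism gave the largest rise over all probe sets. The trehalase locus Os10g37660, which is outside the gene table, read 5.39, 4.07 and 4.15 in WT_CT and 10.25, 10.49 and 10.25 in WT_DS, a rise of 5.79 ± 0.30 (adjusted p = 4.3e-06 over all probe sets). Trehalase splits trehalose, a sugar known both as a protectant and, as its phosphate, as a signal of sucrose status. Over all 54922 probe sets of the array, 1490 were higher (2.71%) and 3170 were lower (5.77%). The list of starch, sucrose, trehalose and raffinose enzymes held 42 named genes, of which 3 rose and 3 fell, and 9 described loci, of which 8 rose. Each count of named genes was 7.14%, beside 7.64% higher and 11.5% lower among all genes with a recognised name. For the named genes the counts were 8 higher and 1 lower with centred arrays and 6 and 2 with quantile normalization.

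Starch breakdown was represented by 2 beta-amylase genes, which release maltose. Os03g04770 went from 4.63, 6.16 and 4.98 to 8.66, 9.41 and 9.06, a rise of 3.78 ± 0.37 (adjusted p = 1.7e-05), and Os10g41550 rose by 2.98 ± 0.21 (adjusted p = 2.6e-06). *RFS*, a raffinose synthase gene that makes an osmolyte of dry tissues, rose by 2.26 ± 0.25 (adjusted p = 5.1e-05), from 4.95, 5.50 and 5.19 to 6.90, 7.85 and 7.65. The hexokinase gene *HXK6* rose by 2.27 ± 0.34 and the neutral invertase locus Os03g20020 by 2.44 ± 0.27. In the other direction, the sucrose synthase gene *OsSUS1*, whose product feeds sucrose into growing tissue, fell by 1.72 ± 0.29 (adjusted p = 0.00092), from 7.89, 8.11 and 7.94 to 7.05, 5.52 and 6.21.

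Sugar transporters were 4 higher and 0 lower of 15 named genes, with a median of 0.52. *OsSWEET15*, of the SWEET family that lets sugars out of cells, read 5.12, 3.66 and 3.55 in WT_CT and 8.74, 9.11 and 9.36 in WT_DS and rose by 4.96 ± 0.41 (adjusted p = 6.3e-06). *OsSWEET16* rose by 2.97 ± 0.27, and *OsSUT2*, a sucrose transporter of the vacuole membrane, by 1.31 ± 0.20 (adjusted p = 0.00043), from 6.27 to 6.29 in all control arrays to 7.28, 7.58 and 7.90. The SWEET-type locus Os01g65880, described by the older name MtN3, fell by 1.86 ± 0.27.

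Some genes for the breakdown of lipids and amino acids rose as well. Isocitrate lyase (*ICL*) and malate synthase (*MS*) are the 2 enzymes particular to the glyoxylate cycle, which turns the products of lipid breakdown into sugar precursors. *ICL* read 5.12 to 5.75 in water and 7.0, 8.08 and 7.90 after DS, and *MS* read 6.83, 7.06 and 6.32 and then 8.35, 8.74 and 8.61. They rose by 2.13 ± 0.31 (adjusted p = 0.00032) and 1.83 ± 0.22 (adjusted p = 8.5e-05), and neither overlapped. Of 15 named genes of the lipid list 3 rose and 1 fell, and of 18 described loci 12 rose and 2 fell, including the enoyl-CoA hydratase locus Os05g45300 at 2.18 ± 0.17 and the lipase gene Os01g15000 at 2.31 ± 0.32.

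In amino acid breakdown 2 of 10 named genes and 6 of 8 described loci rose and 0 fell. *IVD*, isovaleryl-CoA dehydrogenase of leucine breakdown, read 9.73, 8.93 and 8.71 in WT_CT and 10.99, 11.08 and 11.03 in WT_DS, a rise of 1.91 ± 0.23 (adjusted p = 9.5e-05). *OAT*, ornithine aminotransferase, rose by 1.49 ± 0.23 and the glutamate dehydrogenase locus Os04g45970 by 1.49 ± 0.23. The aminotransferase locus Os05g39770 rose by 3.00 ± 0.35, from 6.38 to 7.62 in water to 9.60, 10.46 and 9.94. Of 22 named genes of autophagy and proteolysis 1 rose and 1 fell (4.55% each), below the 7.64% and 11.5% of all genes with a recognised name. Of 35 described loci 13 rose and 9 fell. The serine carboxypeptidase gene *OsSCP3* (Os01g22980) fell by 3.04 ± 0.30 (adjusted p = 2.2e-05), from 6.40, 7.21 and 6.63 to 3.36, 3.91 and 3.85.

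Chlorophyll and photosynthesis genes split by role. Of 32 named members 16 fell and 3 rose, and the median of -0.96 remained below 0 with centred arrays (-0.75) and with quantile normalization (-0.87). All 3 rises were genes of chlorophyll breakdown, the stay-green gene *SGR*, the chlorophyll b reductase gene *NYC1* and the red chlorophyll catabolite reductase gene *RCCR1*, the last of which was looked up after its value was seen. *SGR* went from 6.44, 6.50 and 6.31 to 8.14, 8.97 and 9.28, a rise of 2.38 ± 0.26 (adjusted p = 4.2e-05). *NYC1* went from 9.23, 8.80 and 9.35 to 10.71, 11.30 and 11.42, a rise of 2.02 ± 0.27 (adjusted p = 0.00022).

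Of the 16 that fell, 8 make chlorophyll or its precursors (*CHLH*, *CHLD*, *CHLI*, *PORB*, *CHLP*, *GSA*, *UPD1* and *UPD2*, grouped after their values were seen), and the others include light harvesting, electron transport and carbon metabolism. *CAB2R* read 9.76 to 10.94 in the WT_CT arrays and at most 8.31 in the WT_DS arrays, a fall of 2.35 ± 0.42 (adjusted p = 0.0014). A second chlorophyll a-b binding gene, Os01g52240 (LOC4324705), fell by 3.36 ± 0.60 (adjusted p = 0.0014), from 8.95, 9.66 and 8.70 to 6.17, 6.16 and 4.92. *LFNR1*, the leaf ferredoxin-NADP reductase that ends the electron transport chain, fell by 2.14 ± 0.39 (adjusted p = 0.0016), from 8.92, 8.98 and 10.05 to 6.50, 7.17 and 7.86. Of 5 described loci 3 fell, such as the photosystem II W protein at Os05g43310, by 1.28 ± 0.24, and 1 rose, the photosystem II 10 kDa polypeptide locus Os07g05365, by 3.16 ± 0.52 (adjusted p = 0.0032).

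None of the named genes of protein synthesis and of DNA replication rose. Of 25 named genes of translation 6 fell (24%) and 0 rose, with a median of -0.68, and 3 fell with centred arrays. Among all genes with a recognised name 11.5% fell and 7.64% rose. *RPL39B*, a protein of the large ribosomal subunit, read 8.23, 7.98 and 7.99 in water and 6.03, 6.39 and 6.93 after DS, a fall of 1.62 ± 0.26 (adjusted p = 0.00064), and the ribosomal protein S5 gene Os01g01060 fell by 1.66 ± 0.20. *HisRS*, the histidine tRNA synthetase, fell by 1.49 ± 0.29 (adjusted p = 0.0026). Of 39 described loci 9 fell and 1 rose, the translation initiation factor 5A gene Os03g55150, from 7.01 to 7.60 in water to 8.23 to 8.90 after DS (adjusted p = 0.0032). Without 1 array the described falls ranged from 5 to 17.

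Of 77 named genes for DNA replication, histones, tubulin and kinesin 19 fell (24.7%) and 0 rose, with a median of -0.45. Among all genes with a recognised name 11.5% fell and 7.64% rose. *MCM3*, a subunit of the helicase that opens DNA for replication, read 6.73, 7.11 and 6.82 in WT_CT and 5.87, 5.06 and 5.19 in WT_DS, a fall of 1.51 ± 0.28 (adjusted p = 0.0018). *TUB2*, a beta-tubulin of microtubules, fell by 1.84 ± 0.32 (adjusted p = 0.0012) and the histone gene *H2B.4* fell by 1.78 ± 0.26. With centred arrays the same list gave 9 falls and 1 rise, so the size of this count rests on the scaling. Of 14 described loci 7 fell and 2 rose, both of them kinesins.

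Cell wall genes gave 8 falls and 0 rises of 86 named members. These falls were 9.3%, beside 8.47% of all genes and 11.5% of genes with a recognised name. The median of -0.07 turned to 0.14 with centred arrays. Those that fell included cellulose synthases and an expansin. *CESA1* read 8.83, 8.92 and 8.75 in water and 7.42, 7.42 and 7.31 after DS, and *CESA8* read 8.85, 8.82 and 8.78 and then 7.63, 7.61 and 7.39. These cellulose synthase subunits fell by 1.45 ± 0.18 (adjusted p = 9.7e-05) and 1.27 ± 0.17 (adjusted p = 0.00021). *EXPB3*, a beta-expansin that loosens grass cell walls, fell by 2.65 ± 0.26 (adjusted p = 1.7e-05), from 8.31, 9.38 and 8.94 to 5.96, 6.30 and 6.43. The described glucan endo-1,3-beta-glucosidase locus Os03g57880, of a family that cuts callose, rose by 3.83 ± 0.33, and 12 of 23 described cell wall loci rose and 4 fell.

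**Figure D3:**
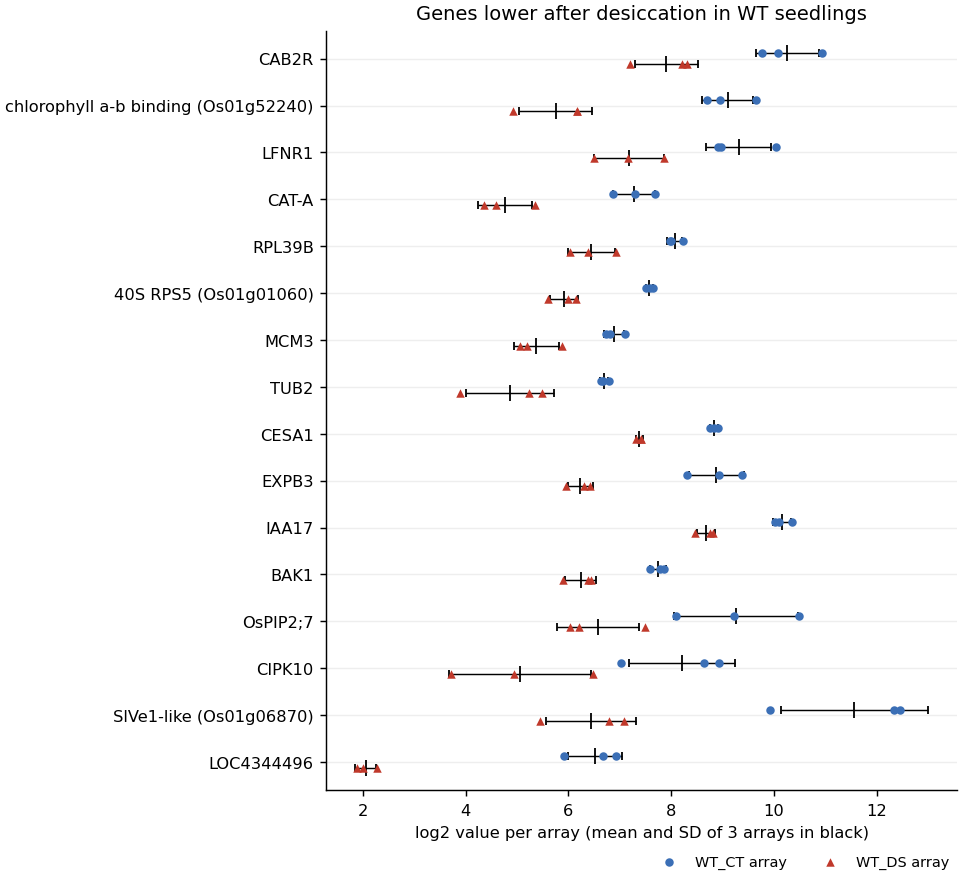
Log2 values of 16 genes that fell after DS in the 3 WT_CT arrays (blue circles) and the 3 WT_DS arrays (red triangles), with the mean and SD of 3 arrays in black. The groups do not overlap for any of the 16 genes. As for the genes that rose, this is no separate evidence, since some named genes were picked for having no overlap. Among the 2030 genes called in either direction, 1984 had none. *CIPK10* is spread from 3.72 to 6.48 over its WT_DS arrays.

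Genes of growth hormones went both ways, and of all genes with a recognised name 7.64% were higher and 11.5% lower. Auxin genes were 7 lower (14.9%) and 1 higher (2.13%) of 47 named members, or 5 and 3 with centred arrays. Their median of -0.20 turned to 0.01 when the arrays were centred. *IAA17*, an Aux/IAA repressor that auxin itself induces, read 10.03, 10.10 and 10.36 in WT_CT and 8.47, 8.81 and 8.75 in WT_DS, a fall of 1.49 ± 0.18 (adjusted p = 8.2e-05). *IAA10* fell by 1.42 ± 0.20, *IAA18* rose by 1.29 ± 0.20, and *OsGH3.3* (Os01g12160), which conjugates auxin to amino acids, fell by 2.14 ± 0.28. Of 17 described auxin loci 7 rose, such as the efflux carrier Os09g31478 by 2.29 ± 0.23, and 5 fell.

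Brassinosteroid genes were 3 lower (20%) and 0 higher of 15 named members, with a median of -0.44, and 2 lower and 1 higher of 4 described loci. *BAK1*, a co-receptor, read 7.87, 7.79 and 7.58 in water and 5.90, 6.38 and 6.44 after DS, a fall of 1.51 ± 0.20 (adjusted p = 0.00018), and *DWARF4*, an enzyme of brassinosteroid synthesis, fell by 1.27 ± 0.22. The third, *GSK2*, fell by 1.09 ± 0.32 (adjusted p = 0.024) and was less stable. Its fall was 0.88 with centred arrays, and its adjusted p was 0.097 without WT_CT replicate 1 and 0.096 without WT_CT replicate 3. Of gibberellin genes, 1 of 15 named members rose and 1 fell, while 7 of 8 described loci rose. *GA20OX3*, a synthesis gene, went from 5.66 to 6.73 in water to 7.95 to 8.85 after DS (adjusted p = 0.00029), and the described loci included 3 annotated as the gibberellin receptor GID1L2, led by Os03g57640 at 2.25 ± 0.23. Cytokinin genes were 3 higher and 1 lower of 27, and members of the same kind went both ways. *LOGL10*, a cytokinin-activating enzyme, fell by 1.43 ± 0.25, whereas its relative *LOGL7* rose by 1.18 ± 0.23, or by 0.98 without WT_CT replicate 3. *OsRR4* and *ORR1* rose by 1.30 ± 0.40 and 1.11 ± 0.24, and the adjusted p of *OsRR4* was 0.1 without WT_CT replicate 2. All 4 described loci rose, 3 of them annotated as glucosyltransferases that inactivate cytokinin. Of jasmonate genes 2 of 18 rose and 1 fell. *JAZ11*, a repressor of jasmonate responses, rose by 2.33 ± 0.40 (adjusted p = 0.0011), and *GH3.5* fell by 1.26 ± 0.22. No ethylene gene of 8 named members was called, and 2 of 3 described ones rose, among them an aminocyclopropane carboxylate oxidase homolog, Os08g30210, by 1.23 ± 0.21.

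Calcium sensors and kinases went both ways, with 11 higher (22%) and 7 lower (14%) of 50 named genes. The shares of all genes with a recognised name were 7.64% and 11.5%. Of 14 described loci 8 rose and 3 fell. *CML16*, a calmodulin-like sensor, read 5.26, 6.80 and 6.40 in WT_CT and 8.97 to 9.32 in the WT_DS arrays, a rise of 2.94 ± 0.37 (adjusted p = 0.00013). *CML15* rose by 1.88 ± 0.32. *CBL9* fell by 1.54 ± 0.24, and *CIPK10*, a kinase of the type that CBL sensors switch on, fell by 3.16 ± 0.81 (adjusted p = 0.012), from 8.65, 7.03 and 8.94 to 4.95, 3.72 and 6.48. The dried arrays of *CIPK10* spanned nearly 3 log2 units, and its adjusted p was 0.052 without WT_CT replicate 3 and 0.059 without WT_DS replicate 2, with a fall of 2.49 in the latter case. Of 9 named receptor-like kinase genes 1 fell and 0 rose, and of the 29 described ones 7 rose and 7 fell. The source of the descriptions held only part of the falls, so these counts do not show an even split.

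Protein turnover by ubiquitin was described mainly through F-box genes. Of 23 named F-box and ubiquitin genes 2 rose (8.7%) and 3 fell (13%), near the 7.64% and 11.5% of all genes with a recognised name. Of 26 described loci 22 rose and 2 fell. *OsFBX257* (Os07g37400) read 4.39, 2.42 and 3.49 in WT_CT and 8.37, 8.31 and 7.71 in WT_DS, a rise of 4.70 ± 0.39 (adjusted p = 6.2e-06), and *OsFBX31* (Os01g65510) rose by 2.44 ± 0.31. *TUD1*, a U-box ubiquitin ligase of brassinosteroid signalling, fell by 1.68 ± 0.27 (adjusted p = 0.00062), from 6.36, 6.38 and 6.34 to 4.08, 4.67 and 5.30.

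Redox enzymes were 3 higher (5.36%) and 8 lower (14.3%) of 56 named genes, beside 7.64% and 11.5% of all genes with a recognised name. Of 20 described loci 13 were higher and 6 lower. The catalase gene *CAT-A*, whose product removes peroxide, fell by 2.52 ± 0.40 (adjusted p = 0.0006), from 7.69, 6.86 and 7.29 to 4.59, 4.35 and 5.35. The thioredoxin gene Os01g37832 rose by 3.35 ± 0.22 (adjusted p = 2.2e-06), from 6.46, 5.82 and 5.89 to 9.58, 9.44 and 9.20, and the monodehydroascorbate reductase locus Os08g44340, which regenerates ascorbate, rose by 2.87 ± 0.38. Cytochrome P450 genes were 1 higher and 2 lower of 24 named members, the former being *CYP71Z6* at 1.67 ± 0.22, and 8 higher and 1 lower of 12 described loci.

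Of 16 named aquaporins, or water channels, 3 fell and 1 rose, with a median of 0.27. The 1 described aquaporin, Os04g44570, rose as well, from 2.24, 2.65 and 1.96 to 4.57, 4.95 and 3.34 (adjusted p = 0.008). *OsPIP2;7*, of the plasma membrane, read 9.22, 8.09 and 10.49 in WT_CT and 6.04, 6.21 and 7.49 in WT_DS, a fall of 2.69 ± 0.67 (adjusted p = 0.01) that was 2.07 on the same scale without WT_CT replicate 3. *Lsi6*, a silicon channel, fell by 1.74 ± 0.23 and *NIP1-1* by 1.64 ± 0.22, whereas *OsTIP1;2*, of the vacuole membrane, rose by 2.69 ± 0.41 (adjusted p = 0.00046), from 7.47, 5.77 and 5.38 to 8.73, 9.24 and 8.72, or by 3.32 without WT_CT replicate 1. Of 96 named ion and metal transporters 6 rose and 10 fell, or 6.25% and 10.4%. The shares were 4.93% and 8.47% of all genes and 7.64% and 11.5% of genes with a recognised name. For these transporters the counts were 9 and 5 with centred arrays and 6 and 7 with quantile normalization. The manganese transporter gene *MTP7* rose by 2.34 ± 0.23 and the zinc ATPase gene *HMA2* by 2.12 ± 0.20, while *MTP4* fell by 2.17 ± 0.30 and the calcium exchanger gene *CAX1b* fell by 1.78 ± 0.29. Of 12 described transporter loci 9 rose and 1 fell, and the calcium-transporting ATPase locus Os04g51610 rose by 2.72 ± 0.25.

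**Figure D4:**
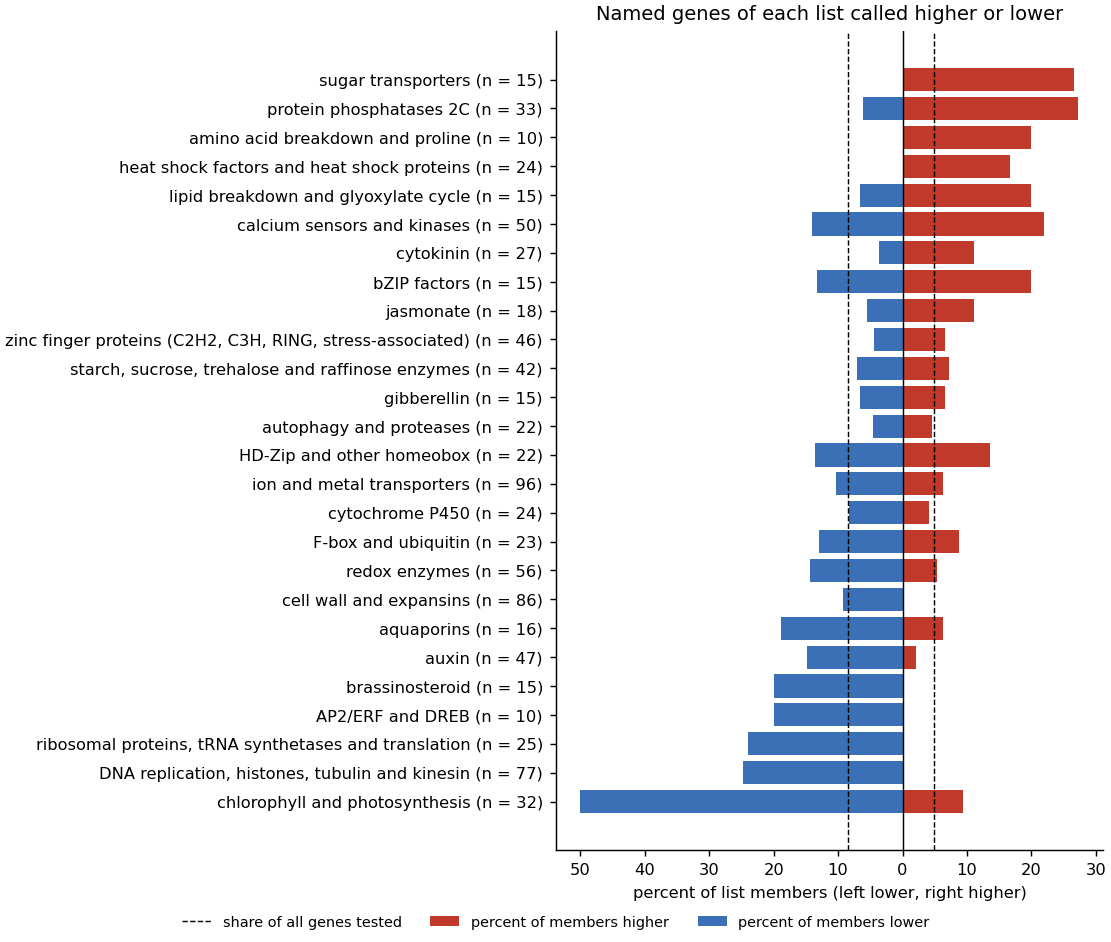
Percent of the named genes of each list that were higher (red, right) or lower (blue, left) after DS, for the 26 lists with 10 or more named members, with the number of members in parentheses. Dashed lines mark the 4.93% and 8.47% of all 15140 genes. Among the 1740 genes with a recognised name, from which the lists are drawn, the shares were 7.64% and 11.5%. The chlorophyll and photosynthesis list, with 16 of 32 lower, reaches farthest to the left.

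Genes with a recognised name were called more often than the others, 133 higher (7.64%) and 200 lower (11.5%), against 614 (4.58%) and 1083 (8.08%) of those listed only by a LOC symbol. A description was available for 471 of these 614 and for 210 of these 1083, so 237 of all genes that rose (31.7%) and 912 of all that fell (71.1%) have no known function here. The gap between rises and falls in this share comes with a limit of the source, since the published list was at hand in full for rises and only in part for falls. Among the 15 largest rises in the gene table, 5 lack a known function. LOC9267506 read 5.58, 3.75 and 4.52 in WT_CT and 10.18, 8.81 and 8.34 in WT_DS, a rise of 4.49 ± 0.60 (adjusted p = 0.00018), and LOC4331521 (Os03g04080) rose by 4.13 ± 0.32 (adjusted p = 4e-06).

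The falls were led by genes of this kind. LOC4344496 was the only gene in the table to fall at least 16-fold. It read 6.68, 5.92 and 6.93 in water and 1.88 to 2.28 after DS, a fall of 4.46 ± 0.31 (adjusted p = 2.6e-06). *PDX12*, of vitamin B6 synthesis, followed with a fall of 3.91 ± 0.58 (adjusted p = 0.00043), from 6.54, 8.39 and 6.34 to 3.36, 2.93 and 3.24, which was 3.26 without WT_CT replicate 2. LOC4326620 (Os01g43230) went from 6.75, 6.83 and 7.02 to 2.29, 3.51 and 3.22, a fall of 3.86 ± 0.28 (adjusted p = 2.9e-06). Outside the gene table, Os01g06870, described as similar to the tomato immune receptor Ve1, read 9.92, 12.45 and 12.34 in WT_CT and 5.44, 7.08 and 6.80 in WT_DS, a fall of 5.13 ± 0.72 (adjusted p = 0.0013) that was 5.96 without WT_CT replicate 1. A locus described as the resistance protein RPM1, Os02g09790, moved the other way, from 2.96, 3.06 and 2.84 to 7.94, 7.75 and 6.70, a rise of 4.51 ± 0.36 (adjusted p = 4.6e-05).

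Some genes that responded alike lay side by side. Of 7734 neighbouring pairs with both genes measured, 46 were both higher, 86 were both lower and 51 had 1 higher and 1 lower. Among genes that rose and had a measured neighbour, 89 of 589 (15.1%) had a neighbour that also rose, whereas 7.5% of all genes with a measured neighbour had one that rose. For falls the shares were 16.6%, or 164 of 989, and 12.1%. In locus order, 73 runs of 2 or 3 adjacent described loci were called in the same direction, 61 of them higher and 12 lower, where falls outside chromosome 1 were mostly not described. In 5 of the rising runs the neighbours shared, word for word, a description other than expressed protein. These were the chromosome 11 dehydrins, the NAC pair on chromosome 12, the GEM-like genes Os04g44500 (2.47 ± 0.18) and Os04g44510 (2.04 ± 0.19), the MYB genes Os05g37050 and Os05g37060 and the aminotransferase genes Os04g52440 and Os04g52450. Os05g37050 rose by 1.24, or by 0.97 without WT_DS replicate 1, and Os04g52440 rose by 2.62, or by 3.33 without WT_DS replicate 1 and 2.03 without WT_DS replicate 2. On chromosome 3 the zinc finger genes *ZOS3-21* and *ZOS3-22* and the actin-depolymerizing factor gene stood in a row. Close copies may share signal, and whether neighbours were read by the same probes was not tested. By chromosome, from 9.69% (chromosome 11) to 14.8% (chromosome 1) of the genes were called in either direction.

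The OX arrays give a view of the same treatment on separate seedlings. The same fit called 797 genes higher and 1408 lower after DS in OX, and the medians of these genes were read in the WT arrays. The WT means had no part in the contrast that chose these genes, although WT arrays entered the shared spread and the choice of probe sets. Over the 797 genes the medians were 5.77, 5.69 and 5.48 in the WT_CT arrays and 6.97, 7.42 and 7.44 in the WT_DS arrays. Over the 1408 genes they were 6.39, 6.33 and 6.53 in WT_CT and 5.12, 5.06 and 5.25 in WT_DS. In both cases the WT groups stayed apart, and WT_DS replicate 1 had the lowest median of its group among the 797. For the difference in response between WT and OX, limma called 0 genes, with a smallest adjusted p of 1. Of the 15140 genes 360 had an unadjusted p under 0.05, a smaller share than that threshold, and 65 of these were among the 2030 called in WT. This difference draws on 4 group means and has larger errors than the WT response, so 0 calls do not show that the responses were the same.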

How the data were processed

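RNA of 12 seedling samples was hybridised to Affymetrix rice arrays. The labels name a 3' IVT PLUS kit and the methods a WT PLUS kit. RMA normalization was done by the authors in Genespring, and the deposited log2 values, 1 per probe set and array, were used as they stood. Arrays were grouped by the sample labels. The gene table of the platform gave 15829 of 54922 probe sets 1 gene, 440 several and 38653 none. A gene was represented by its probe set with the highest mean (627 of 15140 genes had more than 1), and a recognised name came from a RefSeq gene table (assembly ASM3414082v1), used for names and neighbours only.

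A linear model with a mean for each of the 4 groups of 3 arrays was fitted in limma (3.58.1, under R 4.3.3), and WT_DS was set against WT_CT. Errors of fold changes are standard errors from this fit. Benjamini-Hochberg adjustment covered 15140 genes or, for loci outside the gene table, 54922 probe sets. A call needed an adjusted p no larger than 0.05 and a 2-fold change. The median standard error was 0.23, and the number of arrays limits the precision. With 3 arrays against 3, an exact permutation test of a single gene cannot go below p = 0.1. In simulated data over 15140 genes with the fitted means and spreads, 25 of 50 genes changed 2-fold and 48 of 50 changed 4-fold passed the adjusted p. The simulation left nearly all genes unchanged, whereas 4011 genes passed the adjusted p in the data. The cutoff of the adjustment depends on how many genes change, so these shares are not those of the data. Counting and plotting used pandas 2.3.3, numpy 2.4.6 and matplotlib 3.10.9 under Python 3.11.15.

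Descriptions came from a published list of responsive genes, of which 1997 entries were used here. An entry was given to a probe set where the fold changes, some of them from OX arrays, matched within 0.01 and no other probe set did. This held for 1946 entries, and 3 were left out for another chromosome. What was used holds the rises and only part of the falls, and the list was selected on these arrays, so its counts are a description. Of 1345 described probe sets without a recognised name, 586 lie outside the gene table.

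The 33 gene lists, the markers and the members were chosen with earlier results of these data known. Named genes were drawn from the 15 largest rises and falls without overlap between arrays, the 15 largest among described loci, up to 4 called members of each list in either source, and 7 genes of prior interest. Neighbours with a shared description, and the chlorophyll genes so marked, were added after their values were seen. Alternatives covered the test, fold minimum, scaling, dim genes, probe set summary, replicate block and each array left out. Promoter motifs were not analysed here.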

Additional observations from a re-analysis of the deposited data

How the results depend on the processing

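The counts of 747 genes higher and 1283 lower were 209 and 216 by Student's t-test with Benjamini-Hochberg adjustment and 686 and 1172 by the same test unadjusted. For the test used on the arrays, the methods refer to an earlier study. With limma the counts were 1401 and 2610 with no fold minimum, 186 and 117 at 4-fold, and 1490 and 3170 over all probe sets. With centred arrays they were 1100 and 774, and with quantile normalization 917 and 974, so the share of called genes that were lower went from 63.2% to 41.3% and 51.5%. The other settings (limma on the 6 WT arrays, an intensity-dependent prior, dim genes left out, other summaries of probe sets) gave 691 to 755 higher and 1188 to 1299 lower. Leaving out each array in turn gave 670 to 873 higher and 1095 to 1485 lower. With the replicate block the counts were 761 and 1336, of which 746 and 1280 were shared with the fit without it. The reported values take no account of replicate numbers. Of 18 pairs of arrays with the same number, 13 had deviations that correlated above 0.1. All pairs of replicates 2 and all pairs of replicates 3 did, from 0.102 to 0.395, and pairs of replicates 1 ranged from -0.20 to 0.244. Arrays of different groups and different numbers correlated by at most 0.129. Arrays with the same number may thus share an effect that the reported values ignore. With the block 4416 genes had an adjusted p no larger than 0.05, against 4011.

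Of 259 named genes and loci 256 were called, and of 3993 values under other settings 3699 kept their direction and side of the threshold, 293 lost the call and 1 reversed. The reversal was *EIL1*, which changed by 0.54 and, when represented by its probe set with the highest variance, by -1.10. The t-test with Benjamini-Hochberg adjustment accounted for most lost calls. Under it 182 named genes and loci lost theirs, among them *OsHOX24* (adjusted p = 0.054) and the trehalase locus Os10g37660 (adjusted p = 0.056). Under some other setting 41 genes lost theirs. Without 1 array, small list counts also moved, the ABA genes that rose to between 3 and 5, the starch and sugar enzymes that rose to between 3 and 6, the redox genes that fell to between 5 and 9 and the described amino acid loci that rose to between 3 and 7. A match within 0.005, chosen after seeing the data, or 0.02 gave descriptions to 1993 and 1680 entries. A match of promoter motifs was planned and not run, as no promoter sequences were at hand.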

Other observations

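Some described groups lay outside the 33 lists and were looked for after their values were seen. Universal stress proteins, small proteins that accumulate under many stresses, were 7 higher and 0 lower of 8 loci, and the second largest rise was that of Os01g57450, which read 6.04, 6.01 and 5.76 in WT_CT and 8.23, 8.94 and 8.84 in WT_DS (2.73 ± 0.23, adjusted p = 6.5e-05). Mitochondrial carrier proteins, which move metabolites across the inner membrane, were 7 higher and 2 lower of 9, led by Os02g13300 at 1.95 ± 0.21 (6.11, 6.49 and 6.32 in water and 7.97, 8.41 and 8.40 after DS). Loci described as RNA recognition motif proteins were 6 higher and 2 lower of 8. Among them Os07g43950 went from 4.19, 4.15 and 4.48 to 6.94, 7.96 and 7.99, a rise of 3.36 ± 0.33 (adjusted p = 0.00016). Ras-related proteins, small GTPases of membrane traffic, were 4 higher and 0 lower of 8, with Os04g39440 rising by 1.95 ± 0.22. GDSL-type lipases went both ways, 2 higher and 5 lower of 11, from a rise of 2.60 ± 0.30 at Os05g11910 to a fall of 1.64 ± 0.34 at Os01g46169. As these loci come from a list selected on the same arrays, the counts are a description only.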
